A study of Mus musculus with 24 samples.

Results

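The genes described here are 39 interferon-stimulated genes of the mouse, measured by RNA sequencing in whole liver. They were chosen by name, as genes that interferons switch on, with earlier results of these data known. Each of the 39 symbols matched 1 row of the 22392 genes in the table, through its Ensembl identifier in GENCODE release M21. All livers came from CD2F1 mice, and there were 3 groups of 8 mice. The CT mice had a sham injection and no tumour. The C26 mice carried the transplanted C26 tumour, a mouse colon carcinoma line that makes its host lose weight and muscle, and received no treatment. Mice of the C26-CHO group also had the C26 tumour and ate cholestyramine, which traps bile acids inside the intestine, at 2% (w/w) of the diet from day 1 to day 10 after cell injection. The labels give no age or sex, the tumour is a single cell line, and no group had cholestyramine without a tumour.

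Interferons are secreted proteins that cells release on sensing viral or other foreign nucleic acid. Type I interferons bind the receptor IFNAR1-IFNAR2, whose kinases JAK1 and TYK2 phosphorylate STAT proteins such as STAT2. These join IRF9 to form the complex ISGF3, which binds the interferon-stimulated response element, or ISRE, in the promoters of its targets. Interferon gamma uses IFNGR1 and IFNGR2, and its signal ends at a different element, GAS. Many of the targets block a step of virus growth, and others, such as STAT2, IRF9 and IRF7, feed back into the pathway. Liver cells of most types respond to type I interferon, and many of these genes have a low constant level without infection.

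The libraries held 20749425 to 24071853 reads in CT, 19905578 to 29134516 in C26 and 20750904 to 30503996 in C26-CHO. Levels are normalised counts, which are reads divided by the authors' size factor for the library. Unless another form is named, a level is the mean ± SD over 8 mice, 3 values in a row are the lowest, the median and the highest mouse, and a fold change is a difference of log2(level + 1), which understates the change of low genes. A gene was called at a Benjamini-Hochberg adjusted p under 0.05 in limma over 14040 genes. All 39 members passed the filter of a mean level of at least 10, which used all 24 libraries together. In whole liver, fewer cells of a type and less RNA per cell cannot be told apart.

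The promoter sequences show the element by which these genes are usually read. RefSeq promoters on build GRCm38.p6, from 250 bases before to 50 bases after the start of transcription, were at hand for 28 of the 39 members. The ISRE core, which is GAAA, any 2 bases and GAAA again, was searched on both strands with overlapping copies allowed. It occurred in 17 of these 28 members (60.7%) and in 3.99% of all 27025 genes with a promoter (3.44% of all 32851 promoters). The GAS core, which is TTC, any 3 bases and GAA, was searched likewise, without regard to overlap with the ISRE core, and occurred in 8 of the 28 (28.6%) and in 9.55% of all genes with a promoter (8.3% of all promoters). The windows below were picked to set promoters of genes that were lower in tumour-bearing mice (Ifit1, Ifit3, Ifit3b, Bst2, Igtp) beside promoters of genes that were not called (Isg15, Irgm1) or were higher (Stat2). Each is read 5′ to 3′ on the strand of its gene, with 1 copy of the ISRE core, or of its reverse complement, in capitals.
Ifit1: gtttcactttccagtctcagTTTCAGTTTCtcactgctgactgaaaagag
Ifit3: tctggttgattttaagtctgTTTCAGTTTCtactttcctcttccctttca
Ifit3b: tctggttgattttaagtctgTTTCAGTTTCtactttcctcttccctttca
Bst2: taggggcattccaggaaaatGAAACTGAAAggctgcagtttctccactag
Igtp: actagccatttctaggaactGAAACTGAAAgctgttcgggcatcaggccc
Isg15: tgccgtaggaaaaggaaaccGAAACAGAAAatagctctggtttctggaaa
Irgm1: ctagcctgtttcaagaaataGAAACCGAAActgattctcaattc
Stat2: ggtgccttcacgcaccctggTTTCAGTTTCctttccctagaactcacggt

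The Ifit1 window lies at chr19:34640784-34640833 on the plus strand, and its copy begins 85 bases before the RefSeq start. The Ifit3 window (chr19:34583387-34583436, plus) and the Ifit3b window (chr19:34607783-34607832, plus) hold the same 50 bases. The Bst2 window lies at chr8:71537567-71537616 on the minus strand and the Igtp window at chr11:58199502-58199551 on the plus strand. The Isg15 window (chr4:156200855-156200904, minus), the Irgm1 window (chr11:48871421-48871464, minus) and the Stat2 window (chr10:128270256-128270305, plus) also hold the core. An ISRE core was therefore present before genes that were lower, higher and not called in C26. Counted over the whole promoter, with the 50 bases after the start, the core occurred in 14 of 21 members called lower. It occurred in 1 of 2 called higher and in 2 of 5 not called. In Ifih1, Ddx58 and Eif2ak2, which were called lower, the only copy did not lie wholly before the start. A match of these letters describes the promoter and says nothing of what was bound there.

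Most of the 39 genes were lower in the livers of tumour-bearing mice. In C26 against CT, 27 members were called lower, where 32.9% of all genes tested were, and 5 were called higher, where 33.3% of all genes were. The 5 higher members were Stat2, Zbp1, Mx2, Irf9 and Parp9. The other 7 were not called: Irgm1, Xaf1, Parp14, Irf1, Trim25, Oas2 and Isg15. The median log2 fold change of the members was -0.91, against 0.01 for all genes. Of the 27, 18 were lower by at least 2-fold, a size that 8.26% of all genes reached. In 17 members every C26 mouse lay below every CT mouse, as in 18% of all genes, and in 2 every C26 mouse lay above every CT mouse, as in 16.9% of all genes. Together the members took 0.0946 ± 0.0111% of the reads in CT, 0.0558 ± 0.0035% in C26 and 0.0623 ± 0.0107% in C26-CHO. These are shares of reads before the size factor. The summed normalised level dropped less: it read 15690, 19031 and 22004 in CT, 13120, 14046 and 15356 in C26, and 13056, 15115 and 18800 in C26-CHO.

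**Figure D1:**
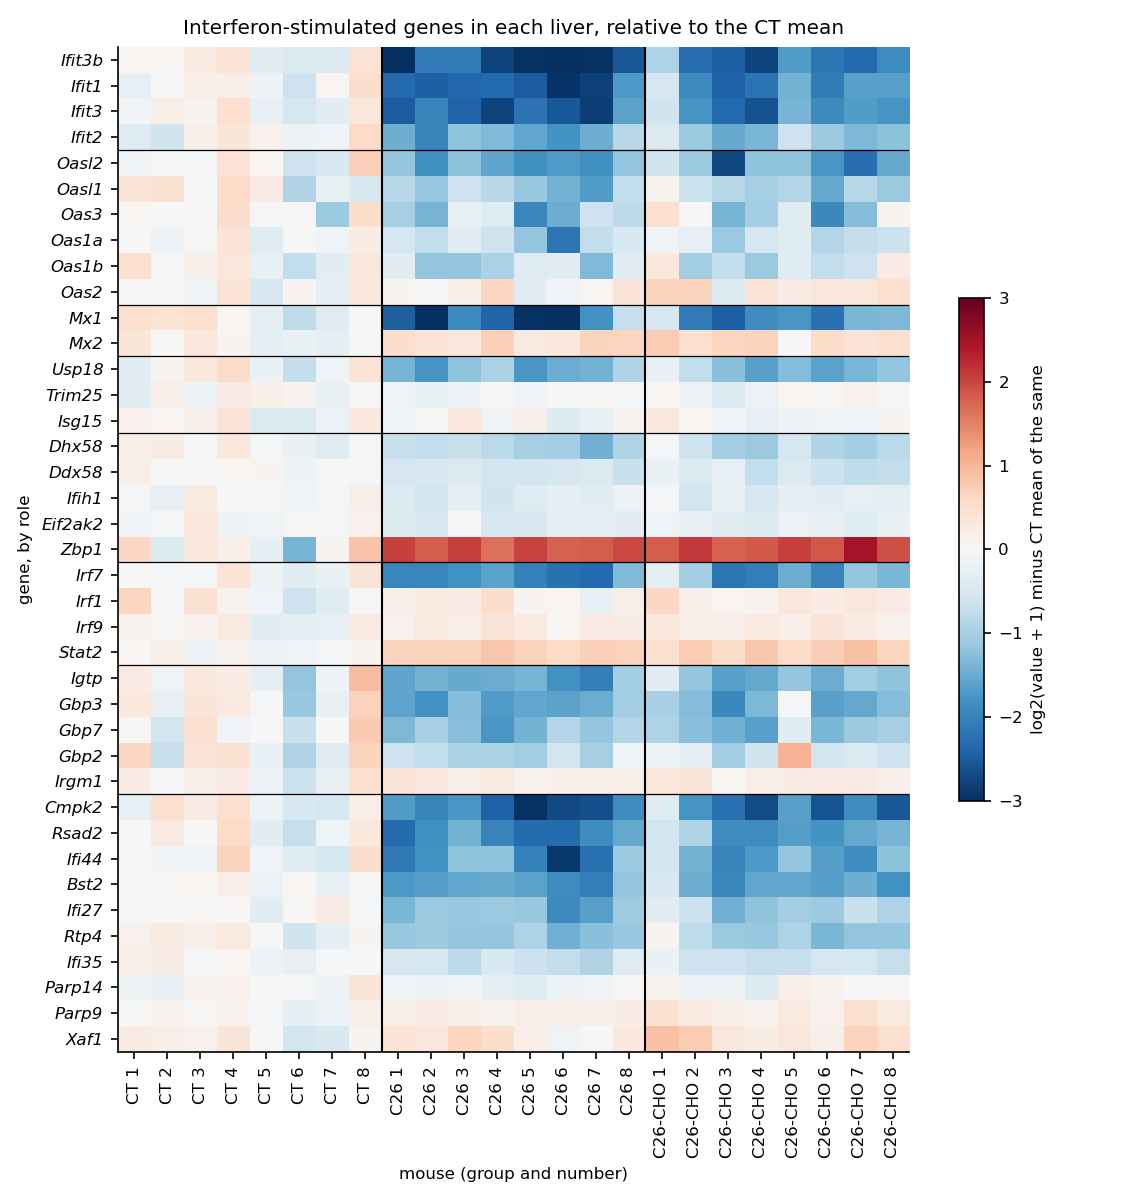
Each row is 1 of the 39 interferon-stimulated genes, grouped by role, and each column 1 mouse. Colour gives log2(level + 1) minus the CT mean of the same gene, blue for lower and red for higher: the IFIT rows, Mx1, Irf7 and Cmpk2 are deep blue in C26, and Zbp1 and Stat2 are red in all 16 tumour-bearing mice.

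Per kilobase of exon, the most abundant member in every group was Bst2, at 2380.0 normalised counts per kilobase in CT, 767 in C26 and 882 in C26-CHO. BST2, or tetherin, holds budding virus particles at the cell surface. Ifi27 came next in every group, at 1127, 462 and 607 per kilobase. The least abundant was Oas3 in every group, at 3.77, 1.89 and 2.55 per kilobase. The order in between moved most for Zbp1, which ranked 32 of the 39 members in CT and 12 in C26, and for Ifit3, which ranked 8 in CT and 22 in C26.

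The ligands themselves were barely read. Of 21 interferon genes listed, the table has rows for Ifnk and Ifng, which fell under the filter and were not tested. Ifng had 7 reads over the 8 CT libraries, 2 over the C26 libraries and 3 over the C26-CHO libraries, and it stood at 0 in 4, 6 and 5 libraries, where a count of 0 allows up to 3 reads. Ifnk had 15, 13 and 8 reads. The other 19, Ifnb1 among them, were not analysed here; every gene in the table has at least 5 reads in total.

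The receptor genes and the kinase Jak1 were higher in C26 while most of the target genes were lower. The receptor chain Ifnar1 read 757, 877 and 958 in CT and 1145, 1219.9 and 1373 in C26, without overlap, with a log2 fold change of 0.52 ± 0.0614 (SE) and an adjusted p of 4.06e-08 in limma. Ifnar2 (0.70), Ifngr1 (0.52), Ifngr2 (0.55) and Jak1 (0.54) were also called higher on the log2 scale. Ifnlr1, a receptor chain at a low level, read 0.0 to 7.95 over the CT mice and 13.9 to 35.5 over the C26 mice. The kinase Tyk2 was lower by a smaller amount, at -0.20 on that scale (limma, adjusted p = 0.00439). Of 16 genes listed for the receptors and JAK-STAT signalling, 12 were called higher in C26 against CT, where 33.3% of all genes were. The median log2 fold change of the 16 was 0.52.

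Of the parts of ISGF3, the members Stat2 and Irf9 were both called higher in C26 against CT. Stat2 read 1467, 1643 and 1827 in CT, 2448, 2623 and 2889 in C26, and 2266, 2639 and 3001 in C26-CHO. Every tumour-bearing mouse of either group therefore lay above every CT mouse in Stat2. Its log2 fold change in C26 against CT was 0.69 ± 0.0596 (SE; limma, adjusted p = 1.4e-10). Irf9, the DNA-binding part of the complex, was higher by 0.22 ± 0.0772 (SE; limma, adjusted p = 0.0145), and its groups overlapped. Irf9 also shares exonic sequence with Rnf31 on the same strand (mean level 377), so how reads in the shared part were assigned is uncertain.

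Genes for inhibitors of the pathway differed from each other. Socs1, an inhibitor of the JAK kinases, rose from 10.7 ± 3.47 in CT to 432 ± 103 in C26, with a log2 fold change of 5.24 ± 0.295 (SE; limma, adjusted p = 5e-14). Socs3, which mainly restrains signalling through the interleukin-6 receptor family, rose from 126 ± 40.0 to 5733 ± 594 (log2 fold change 5.55). The phosphatase Ptpn2, which acts on JAK and STAT proteins, rose by 1.32 on the log2 scale. In none of the 3, which are named for their small p, did a C26 mouse overlap with a CT mouse. Other inhibitors on the same list, named after their values were seen, moved little: the phosphatase Ptpn6 was at 351 ± 61.2 in CT and 405 ± 33.7 in C26 (log2 fold change 0.22; limma, adjusted p = 0.0306), and Pias1 was not called, at 311 ± 25.99 and 312 ± 33.8. Usp18, a member that both removes ISG15 from proteins and blocks the receptor IFNAR2, moved the other way: it read 126, 205 and 305 in CT and 60.0, 77.7 and 111 in C26, again with no overlap, and fell by 1.36 on the log2 scale (limma, adjusted p = 7.36e-07).

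**Figure D2:**
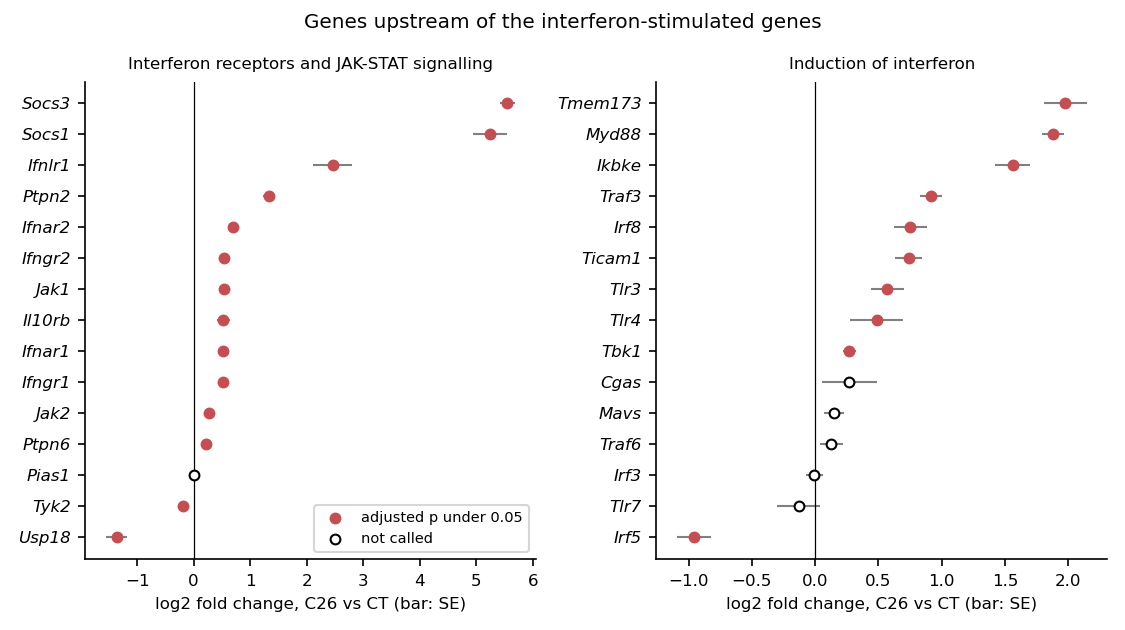
Log2 fold change in C26 against CT for genes of the receptors and JAK-STAT signalling (left) and of interferon induction (right), with bars for the SE and filled points for an adjusted p under 0.05. Socs3 and Socs1 lie beyond 5, Ifnar1, Ifnar2, Ifngr1 and Ifngr2 near 0.5 to 0.7, and the low-level receptor chain Ifnlr1 to their right. Irf5 (-0.96) and Usp18 (-1.36) lie to the left of 0.

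Genes that lead to interferon production were mostly higher too. Of 15 tested genes on that list, 9 were called higher and 1 lower in C26 against CT, where 33.3% and 32.9% of all genes were. The median log2 fold change of the 15 was 0.49. Named by the smallest p were Tmem173, which encodes the DNA sensing adaptor STING (1.98), the Toll-like receptor adaptor Myd88 (1.88), the kinase Ikbke (1.56) and the adaptor Traf3 (0.91). The gene called lower was the transcription factor Irf5 (-0.96). None of the 15 was called in C26-CHO against C26.

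Among the member transcription factors, Irf7 fell most. IRF7 is the factor that amplifies type I interferon production once a first wave of interferon has induced it. It read 499.7, 602 and 832 in CT, 122, 161 and 251 in C26, and 136, 232 and 509 in C26-CHO. Every C26 mouse lay below every CT mouse, and 1 of the C26-CHO mice reached into the CT range. Its log2 fold change in C26 against CT was -1.91 ± 0.204 (SE; limma, adjusted p = 7.58e-09). Irf7 shares exonic sequence with Phrf1 on the opposite strand (mean level 545), and reads of this pair cannot be told apart where they overlap, because the strand used in counting was not given in the sources used here. Irf1, an early target of interferon gamma, was not called (569.7 ± 166 in CT, 623 ± 95.3 in C26).

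The nucleic acid sensors split by gene. The helicases that detect double-stranded RNA were lower, with log2 fold changes of -0.91 for Dhx58, -0.52 for Ddx58 (RIG-I) and -0.38 for Ifih1 (MDA5). Eif2ak2, the kinase PKR that halts translation when it binds such RNA, was lower too (-0.35). Ddx58 and Dhx58 showed no overlap between C26 and CT. Zbp1, a sensor of left-handed nucleic acid that can start necroptosis, was the member that rose most. It read 36.4, 108 and 179 in CT, 308, 369.6 and 409.9 in C26, and 336, 369 and 559 in C26-CHO. No tumour-bearing mouse of either group overlapped with a CT mouse. Its log2 fold change in C26 against CT was 1.89 ± 0.204 (SE; limma, adjusted p = 9.03e-09).

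The IFIT genes fell most as a group, and all 4 were called lower by at least 2-fold with no overlap between C26 and CT. Over all genes, 8.26% were called lower by at least 2-fold, and 18% had every C26 mouse below every CT mouse. IFIT proteins bind viral RNA that lacks the cap modification of the host, and block its translation. The 4 genes lie next to each other on chromosome 19, from Ifit2 (chr19:34550694-34576419, GRCm38) to Ifit1 (chr19:34640871-34650009). Ifit3b read 84.2, 119.5 and 154 in CT, 10.4, 14.9 and 26.3 in C26, and 16.1, 23.9 and 60.3 in C26-CHO. Each tumour-bearing mouse of either group was below each CT mouse. Ifit3b had the lowest log2 fold change of the 39 members in C26 against CT, -2.74 ± 0.222 (SE; limma, adjusted p = 4.98e-11). Ifit3b and Ifit3 are near-identical copies, so how their reads divide is uncertain; Ifit3 alone fell by 2.36 on the log2 scale.

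Ifit1 read 130.2, 206 and 291 in CT, 25.1, 37.0 and 60.0 in C26, and 36.4, 58.3 and 140.1 in C26-CHO. The C26 and CT mice did not overlap, and 1 C26-CHO mouse entered the CT range. Its log2 fold change in C26 against CT was -2.43 ± 0.211 (SE; limma, adjusted p = 1.75e-10). Ifit2, the member of the family with the smallest change, fell by 1.45 on the same scale.

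Of 6 OAS genes, 5 were called lower in C26 against CT, where 32.9% of all genes were. OAS enzymes make the messenger 2-5A on double-stranded RNA, which turns on the nuclease RNase L; Oasl1 and Oasl2 encode OAS-like relatives. Oasl2 had the smallest p of the family. It read 60.3, 92.4 and 154 in CT, 25.3, 29.4 and 40.7 in C26, and 13.1, 35.5 and 61.0 in C26-CHO, so that the C26 mice lay wholly below the CT mice. Its log2 fold change was -1.55 ± 0.236 (SE; limma, adjusted p = 2.53e-06), and those of Oasl1, Oas3, Oas1a and Oas1b were -1.05, -0.98, -0.85 and -0.75. Oas2 was not called, at 77.6 ± 15.8 in CT and 84.4 ± 17.8 in C26. The OAS genes are close copies of each other on chromosome 5, and Oas3 and Oas1b rested on 95 and 162 reads over the 8 C26 libraries.

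The Mx genes moved in opposite directions. Both encode dynamin-like GTPases that block early steps of virus growth, in the mouse Mx1 in the nucleus and Mx2 in the cytoplasm. Mx1 read 24.9, 43.2 and 61.7 in CT, 3.83, 7.13 and 26.2 in C26, and 7.07, 11.5 and 29.7 in C26-CHO. Of the C26 mice, 7 of 8 lay below every CT mouse, and the fold change was -2.31 ± 0.312 on the log2 scale (SE; limma, adjusted p = 3.89e-07). Mx2 read 142, 175 and 226 in CT, 210.1, 242 and 289 in C26, and 177, 251 and 296 in C26-CHO. Its groups overlapped, and it was higher in C26 by 0.49 ± 0.107 (SE; limma, adjusted p = 0.000294). GENCODE lists Mx2 and Oas1b as polymorphic pseudogenes, since the reference strain carries disrupted alleles. The reads say nothing of the protein made from these genes, or from Mx1, in CD2F1 mice.

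Isg15, one of the best known markers of an interferon response, was not called. It encodes a ubiquitin-like protein that is attached to other proteins during infection. It read 91.9, 133 and 163 in CT, 94.0, 121 and 159 in C26, and 105, 115 and 159 in C26-CHO, and both tumour-bearing groups lay within the CT range. The log2 fold change in C26 against CT was -0.03 ± 0.122 (SE; limma, adjusted p = 0.854), and it changed sign when any of 3 single mice was left out. Trim25, a ubiquitin ligase that modifies RIG-I, was not called either, at 1719.6 ± 236 in CT and 1629 ± 103 in C26; its fold change was -0.07 and, under quantile normalisation, 0.07.

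**Figure D3:**
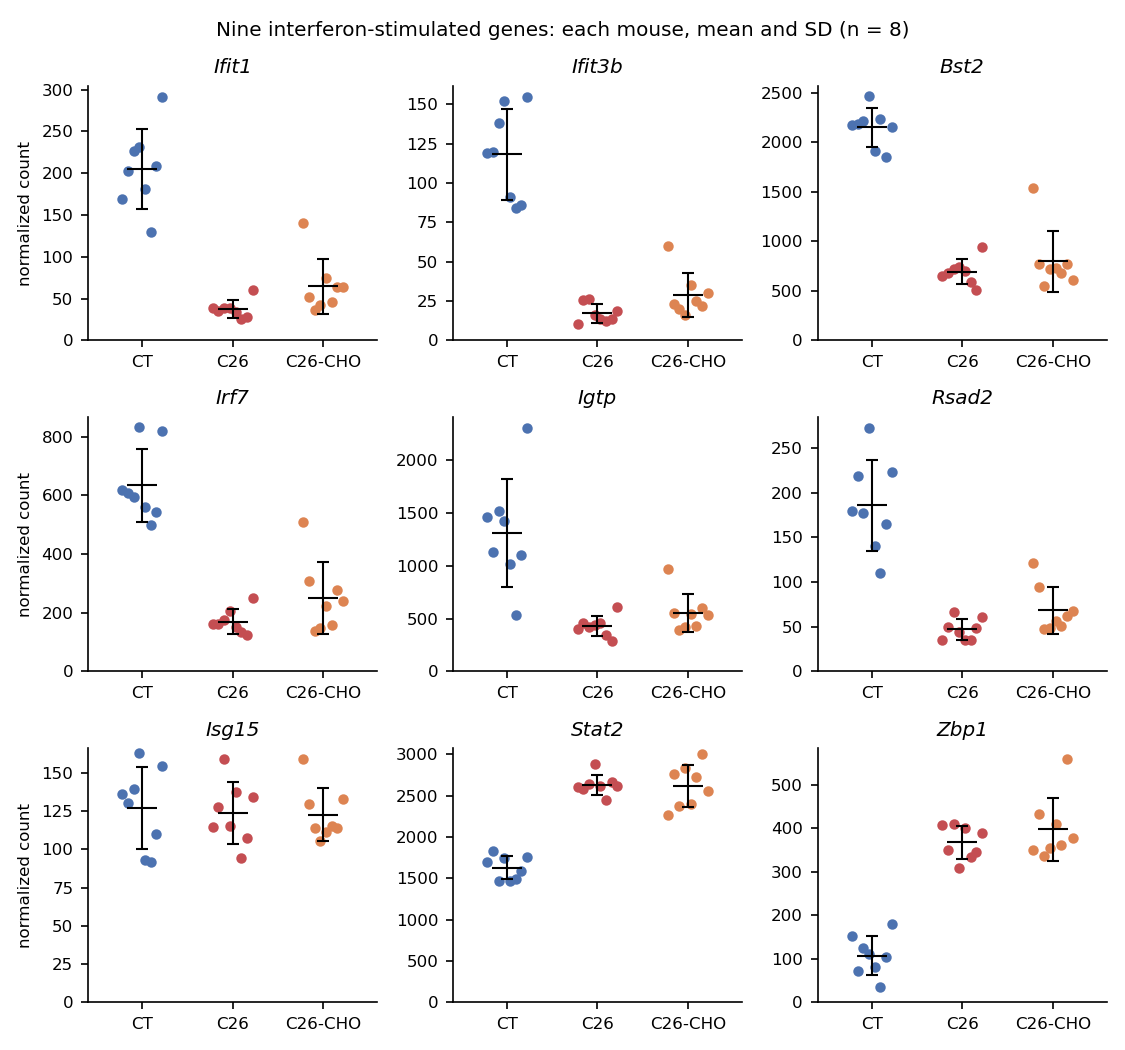
Normalised count of 9 members in each mouse (points), with the mean and SD of 8 mice per group (bars). Ifit1, Ifit3b, Bst2, Irf7, Igtp and Rsad2 are lower in C26 than in CT, Stat2 and Zbp1 are higher, Isg15 is level across the groups, and 1 C26-CHO mouse stands above the rest of its group in Ifit1, Ifit3b, Bst2, Irf7 and Igtp.

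Interferon-inducible GTPases coat and break the vacuoles in which intracellular parasites and bacteria live. Of 5 members of this kind, 4 were called lower in C26 against CT, where 32.9% of all genes were. Igtp, also named Irgm3, read 537, 1275 and 2304 in CT, 289, 429 and 606 in C26, and 391, 536 and 966 in C26-CHO. Of the C26 mice, 7 of 8 lay below every CT mouse. The log2 fold change was -1.54 ± 0.211 (SE; limma, adjusted p = 4.71e-07). Igtp overlaps Irgm2 in the annotation (mean level 1145), so reads in the shared part are uncertain. Gbp3 (-1.51), Gbp7 (-1.21) and Gbp2 (-0.74) were lower too, and these GBP genes are similar in sequence. Irgm1, a regulator of the other IRG proteins, was not called, at 836 ± 195 in CT and 952 ± 61.6 in C26; it was called higher under quantile normalisation, with TMM-scaled CPM and without any of CT 1, 4 or 8 (limma, adjusted p over all alternatives 0.00853 to 0.166).

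Of the 10 other effectors, 7 were called lower in C26 against CT, where 32.9% of all genes were. In all 7 every C26 mouse lay below every CT mouse, as in 18% of all genes. Bst2 read 1850.0, 2178 and 2467 in CT, 511, 691 and 942 in C26, and 546, 728 and 1542 in C26-CHO. No tumour-bearing mouse of either group reached the CT range. Its log2 fold change was -1.65 ± 0.143 (SE; limma, adjusted p = 1.67e-10). Rsad2, whose product viperin makes a nucleotide that ends viral RNA chains, fell by 1.95 on the log2 scale. Its neighbour on chromosome 12, Cmpk2, a mitochondrial nucleotide kinase, fell by 2.25. The others were Ifi44 (-1.83), the mitochondrial protein gene Ifi27 (-1.31), Rtp4, a chaperone of G protein-coupled receptors (-1.17), and Ifi35 (-0.62).

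Parp9, an ADP-ribosyltransferase that works with DTX3L, was the effector called higher in C26, by 0.18 ± 0.0635 on the log2 scale (SE; limma, adjusted p = 0.0152). It overlaps Dtx3l on the opposite strand (mean level 987), which leaves the shared reads uncertain. Parp14, of the same family, was not called (831 ± 119 in CT, 741 ± 62.6 in C26). The apoptosis-associated gene Xaf1 was not called either (266 ± 56.8 in CT, 322 ± 55.7 in C26), though it was with the replicate block and without any of CT 1, CT 4, C26 6 or C26 7 (limma, adjusted p over all alternatives 0.019 to 0.157).

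Other genes that interferons induce were listed apart from the 39. Of 49 tested genes listed for type I interferon, 20 were called lower and 15 higher in C26 against CT, where 32.9% and 33.3% of all genes were, with a median log2 fold change of -0.08. Those with the smallest p were Ifi27l2b (3.91), Ifitm2 (1.82), Helz2 (0.75), Apol9b (-3.17) and Apol9a (-2.84), the last 2 being close copies. Of 29 tested genes listed for interferon gamma, 18 were called lower and 4 higher, against the same shares of all genes, with a median of -0.60. Here the smallest p belonged to the complement inhibitor Serping1 (1.67), the proteasome activator subunit Psme1 (-0.86) and the GTPases Gbp11 (-2.49), Gbp4 (-2.10) and Gm12250 (-1.96).

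Markers of lymphocytes, and the summed level of the hepatocyte markers, moved in the same direction as most of the members. All 4 tested T and NK cell markers and 4 of 5 tested B cell markers were called lower in C26 against CT. Over all genes, 32.9% were called lower and 33.3% higher, and the counts of each list below are to be read against these shares. Over all 12 T and NK cell markers, the summed level was 95.7 to 282 in CT, 37.6 to 94.9 in C26 and 46.5 to 172 in C26-CHO. Over all 6 B cell markers it was 62.2 to 195 in CT, 33.3 to 103 in C26 and 41.6 to 163 in C26-CHO. Markers of Kupffer cells and macrophages (10 of 11 called higher), monocytes (5 of 5) and neutrophils (5 of 5) moved the other way. Of 8 hepatocyte markers 4 were called lower and 2 higher. Their summed level was 1558763 to 1794049 in CT, 695531 to 900966 in C26 and 737841 to 929212 in C26-CHO. Of 6 plasmacytoid dendritic cell markers only 1 passed the filter, and it was higher, which alone cannot show how these cells moved. Of 7 sinusoidal endothelial markers 5 were called higher and 1 lower, of 8 stellate cell and fibroblast markers 2 and 1, and of 6 cholangiocyte markers 3 and 0. The summed cholangiocyte level rose from 505 to 838 over the CT mice to 5902 to 11799 over the C26 mice. For the neutrophil list it was 40.8 to 81.0 in CT and 298 to 1096 in C26. No marker of these lists was at 0 in all libraries of a group. The monocyte list holds F10 and Fn1, which hepatocytes also make. In every library the summed hepatocyte markers stood above each of the other sums. The part of these cell types in the members' levels was not tested.

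**Figure D4:**
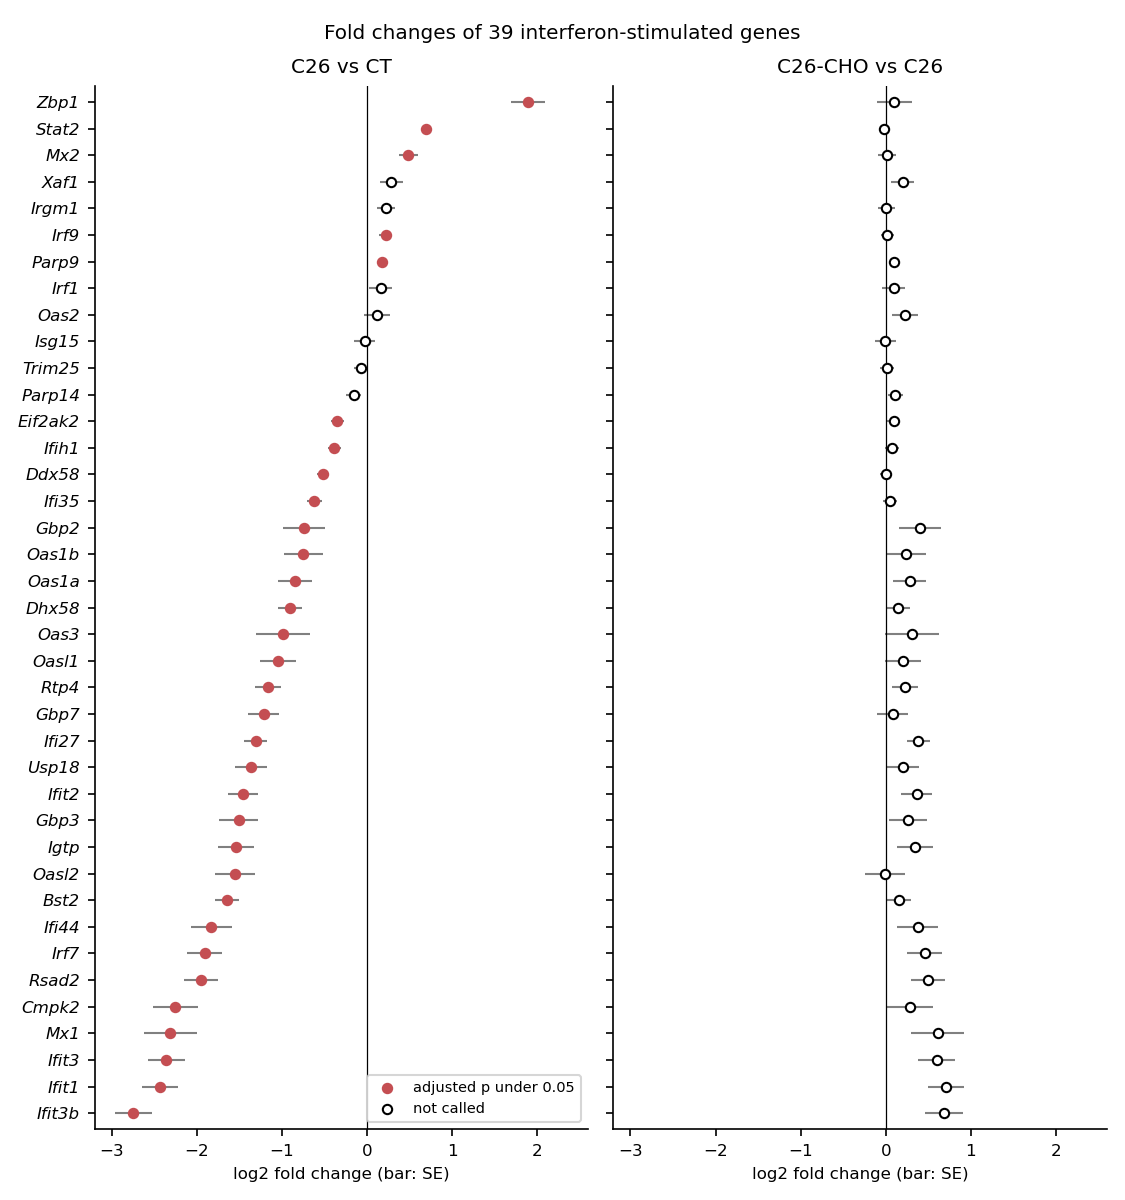
Log2 fold change of each of the 39 members with its SE as a bar, in C26 against CT (left) and C26-CHO against C26 (right), ordered by the first. Filled points passed an adjusted p of 0.05: 27 lie left of 0 and 5 right of it on the left, and none is filled on the right, where all lie between -0.02 and 0.70.

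Cholestyramine was compared with no treatment in tumour-bearing mice. None of the 39 members was called in C26-CHO against C26, where 0.556% of all genes were called higher and 0.15% lower in limma, and 6 members had an unadjusted p under 0.05, as did 13% of all genes. DESeq2 called 1 member, Ifit1, and edgeR's quasi-likelihood test called none. The fold changes of the members were small and mostly above 0: 36 were above 0 and 3 below, while 50.3% of all genes were above 0, and the median was 0.20, against 0.00 for all genes. The 3 below 0, Stat2, Oasl2 and Isg15, lay at -0.02, -0.01 and -0.01. The smallest p belonged to Ifit1, at 0.70 ± 0.211 (SE; limma, adjusted p = 0.116; 0.0304 to 0.213 over all alternatives), and 7 of 8 C26-CHO mice were above the C26 mean. Ifit3b (0.68), Ifi27 (0.38), Ifit3 (0.60), Rsad2 (0.50) and Irf7 (0.46) made up the rest of the 6.

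A single mouse weighed on these values. Without C26-CHO 1, 32 members were above 0 and 7 below, where 52.2% of all genes were above 0, and the members' median fell to 0.08. In limma 4 members then had an unadjusted p under 0.05, as did 9.76% of all genes. The log2 fold change of Ifit1 was then 0.53 and that of Irf7 0.29, and Bst2 went from 0.15 to 0.00. Without C26-CHO 3, Ifit1 was called (limma, adjusted p = 0.0433) and the median was 0.22. This comparison uses the same C26 libraries as C26 against CT, so the values of the 2 comparisons are not independent.

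None of the tested genes of the receptor, induction, type I and interferon gamma lists was called in C26-CHO against C26 (limma, Benjamini-Hochberg). The log2 fold changes were -0.07 for Ifnar1, -0.0016 for Ifnar2, 0.01 for Ifngr1, -0.13 for Ifngr2, -0.04 for Jak1, 0.03 for Tyk2 and -0.40 for Socs1. The lowest on the receptor list was that of Ifnlr1, at -0.69. Its level was low, at 13.9 to 35.5 in C26 and 7.83 to 21.2 in C26-CHO. Socs1 stood at 68.9 in C26-CHO 1, and without that mouse its difference was -0.08. The closest to a call were the near-identical Apol9b (1.01, adjusted p = 0.0737) and Apol9a (0.89, adjusted p = 0.0828), apolipoprotein L genes that interferon induces. Apol9b read 277, 355 and 816 in C26 and 401, 802 and 2058 in C26-CHO, with overlap, against 2901, 3496 and 4129 in CT. It was called in 7 alternatives, with edgeR and DESeq2 among them (adjusted p 0.00916 to 0.048), and Apol9a in 4.

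C26-CHO was also set against CT, and this comparison shares its libraries with both of the others. Of the 39 members, 24 were called lower, where 30.9% of all genes were, and 7 higher, where 31.3% were; 15 were lower by at least 2-fold, as were 6.39% of all genes. The median log2 fold change was -0.68, against 0.00 for all genes. In 5 members (Ifit3, Ifit3b, Ddx58, Bst2 and Ifi44) every C26-CHO mouse lay below every CT mouse, as in 13.1% of all genes, and in Stat2 and Zbp1 every C26-CHO mouse lay above, as in 12.1%. Side by side, Ifit1 had a fold change of -2.43 in C26 and -1.73 in C26-CHO, Irf7 of -1.91 and -1.45, Bst2 of -1.65 and -1.50, Igtp of -1.54 and -1.20, and Zbp1 of 1.89 and 1.99. The 7 higher members were Stat2, Zbp1, Mx2, Parp9, Xaf1, Irf9 and Oas2. Outside the members, Socs1 (4.84), Ifnar2 (0.70), Ifngr1 (0.53), Jak1 (0.50), Ifnar1 (0.45) and Ifngr2 (0.41) were called higher, and Tyk2 (-0.16) lower. The call of Oas2 stood at the threshold (0.34 ± 0.15, SE; limma, adjusted p = 0.0496; 0.00495 to 0.148 over all alternatives).

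Within each group, a few mice held the highest or lowest level of many members. In C26-CHO, mouse 1 had the highest level of its group in 29 of the 39 members and in 23.2% of all genes, and 37 members lay above the group mean there. This mouse also had the lowest level of its group in 1 member and in 25.2% of all genes, so it stood apart in many genes outside the members. Its median deviation from the group mean was 0.47 on the log2 scale over the members and -0.0048 over all genes. The same mouse had the highest summed B cell marker level of its group (163) and a T and NK cell marker sum of 160. Its monocyte (50263), neutrophil (197), cholangiocyte (2540) and plasmacytoid dendritic cell (286) marker sums were the lowest of the group. The monocyte sum includes F10 and Fn1, which hepatocytes also make. The part of these cell types in its high members was not tested. At the other end, C26-CHO 3 was lowest in 18 members and C26-CHO 4 in 11, and in 11.5% and 9.64% of all genes.

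**Figure D5:**
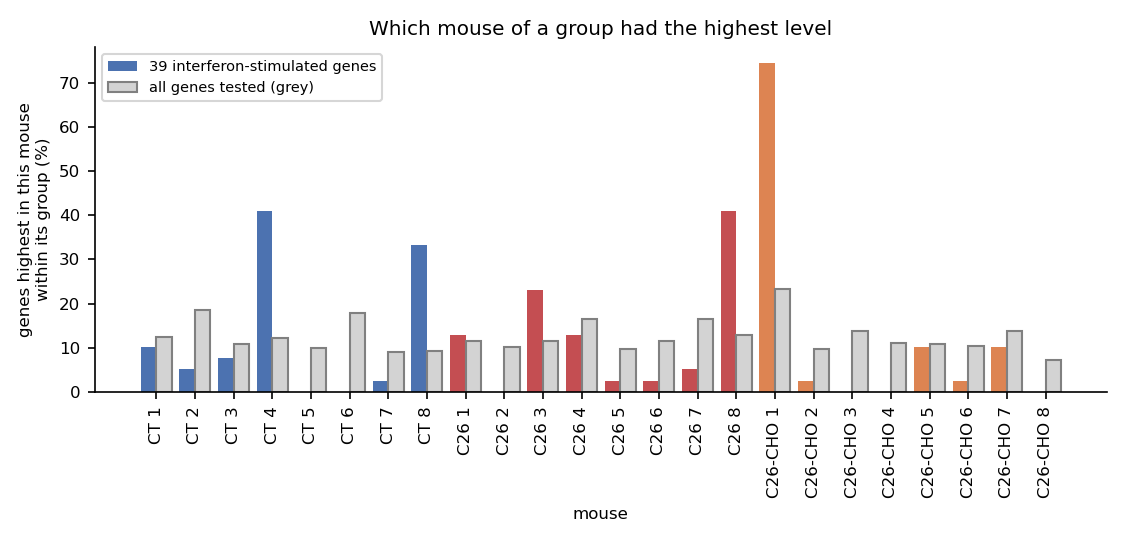
For each mouse, the share of genes that reached their highest level of the group in that mouse, for the 39 members (coloured) and all genes tested (grey), in percent. C26-CHO 1 holds the highest level of 29 members, CT 4 and C26 8 of 16 each, and CT 8 of 13.

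In CT, mice 4 and 8 held the highest level of 16 and 13 members, and of 12.2% and 9.15% of all genes. CT 6 held the lowest level of 23 members and of 17.1% of all genes. In C26, mouse 8 held the highest level of 16 members and of 12.8% of all genes. The spread of single members, as the coefficient of variation, had a median of 23.3% in CT, 19.5% in C26 and 28.8% in C26-CHO. It ran from 2.77% to 78.2% in C26, where the highest value was that of Mx1, which rested on 68 reads over the 8 libraries.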

How the data were processed

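RNA was extracted from frozen livers with Trizol and sequenced with standard Illumina libraries, per the labels' protocols. The submitters' processing notes name bcl2fastq 2.17, FastQC, Trimmomatic 0.38, STAR 2.6.1d, DESeq2 1.22.2 and the build GRCm38; which tool counted the reads, with which strand setting and annotation, was not given in the sources used here. The deposited values are normalised signal: gene counts that the authors divided by a size factor per library. Whole reads were recovered from them (100.0% of values within 0.001 read of a whole number).

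The main test was limma 3.58.1 (R 4.3.3) with a trend, on log2(value + 1), for the 14040 genes with a mean of at least 10, with all 24 libraries in 1 fit and no covariate, after a check on simulated data. Alternatives were pseudocounts of 0.5 and 5, no filter, a mean of at least 50, quantile normalisation, TMM-scaled CPM, edgeR 4.0.16, DESeq2 1.42.0 on the recovered reads, a replicate block, the 2 groups alone, and each library left out. Lengths are exon bases of GENCODE M21. The members and all lists were chosen with earlier results of these data known. Named are all members, the up to 5 genes of each pathway list with the smallest p in C26 against CT, and a fixed set of receptors, ligands and kinases. Each library was taken as 1 mouse, from the labels' 8 per group, and p-values measure the spread between these libraries. Of the pathway lists, 1 gene is not reported here.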

Additional observations from a re-analysis of the deposited data

Results flagged for a closer look

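In each group of 8 mice, each of the 39 members was screened for a single mouse far from the other 7, by Dixon's test on log2(level + 1). Of 117 gene and group pairs, 13 were past the 95% critical value of 0.526. Chance alone gives about 1 in 20 where pairs are independent. The 39 genes were read in the same mice, so an excess over chance cannot be read from the 13. Of these, 5 were high values in C26-CHO 1: Igtp at 966, where the other mice of the group lay between 391 and 595; Cmpk2 at 109.6, where they lay between 21.1 and 45.2; Bst2 at 1542, where they lay between 546 and 773; Rtp4 at 323, where they lay between 119 and 182; and Ifi35 at 299.7, where they lay between 212 and 242. Gbp2 was high in C26-CHO 5 (220.5, the others up to 94.7), and without that mouse its difference between C26-CHO and CT was called (log2 fold change -0.54, limma, adjusted p = 0.0313). Eif2ak2 was high in C26 3, at 423 against 344 or less in the others.

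The other 6 were low values. In C26-CHO, Oas2 stood at 56.6 in mouse 3 and Mx2 at 177 in mouse 5. In C26, Oas1a stood at 17.8 in mouse 6 and Dhx58 at 67.0 in mouse 7. In CT, Oas3 stood at 11.1 in mouse 7 and Ifi27 at 1295 in mouse 5.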

How the results depend on the processing

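In C26 against CT, the alternatives that kept all mice called 24 to 27 members lower and 5 or 6 higher, and leaving out single mice gave 27 to 28 and 5 to 7. All genes called in either direction were 7803 to 10509 with all mice kept, where the filters changed how many were tested. With single mice left out they were 9049 to 9399. The 24 came from a mean level of at least 50, which removed Oas1b, Oas3 and Mx1 from the test. In C26-CHO against CT the ranges were 23 to 26 lower and 6 to 8 higher, with single mice left out 24 to 26 and 6 to 8. All genes called there were 7377 to 9492, and 8428 to 8950 with single mice left out. The call of Oas2 was lost in 22 alternatives. In C26-CHO against C26, members called higher came to 1 with DESeq2, and 0 to 1 with single mice left out. All genes called there were 326 with DESeq2, 10 with only these groups in the fit, and 23 to 273 with single mice left out; quantile normalisation put 68.5% of the calls higher, against 78.8% in limma on the deposited scale.

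The labels number the mice 1 to 8 in each group. Same-numbered mice did not deviate together (r of -0.204 to 0.255 over all comparisons), and at most 2 of 8 mice correlated best with their own number. With the replicate block, 27 members were lower and 6 higher in C26 against CT, 0 in C26-CHO against C26, and 25 lower and 8 higher in C26-CHO against CT.

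Fold changes near 0 that were not called changed sign. Under quantile normalisation Trim25 was 0.066 in C26 against CT, -0.035 in C26-CHO against C26 and 0.031 in C26-CHO against CT, and in C26-CHO against C26 Isg15 was 0.015, Ddx58 -0.00073 and Irgm1 -0.013. Oasl2 in C26-CHO against C26 was 0.0061 with a pseudocount of 5, 0.108 with edgeR and TMM, 0.107 with edgeR and DESeq2 size factors, and 0.104 with DESeq2; Myd88 was 0.0038, 0.0026 and 0.0020 in these last 3. With single mice left out, C26-CHO against C26 ran from -0.14 to 0.16 for Oasl2, -0.032 to 0.042 for Ifnar2, -0.047 to 0.054 for Myd88, -0.061 to 0.047 for Isg15, -0.015 to 0.064 for Trim25, -0.018 to 0.087 for Mx2, -0.00078 to 0.061 for Tyk2, -0.046 to 0.038 for Ddx58, -0.045 to 0.013 for Stat2, -0.039 to 0.036 for Ifngr1, -0.0091 to 0.033 for Irgm1, -0.0075 to 0.040 for Irf9, -0.0040 to 0.082 for Ifi35, -0.065 to 0.077 for Ptpn2 and -0.031 to 0.15 for Gbp7. Isg15 ran from -0.090 to 0.027 in C26 against CT and from -0.096 to 0.021 in C26-CHO against CT, where Parp14 ran from -0.080 to 0.0083. The causes were not tested. Low read numbers limit Mx1, Oas3, Oas1b and Ifit3b, and no difference can be drawn for Ifng and Ifnk at this depth.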
